A study of Drosophila melanogaster with 6 samples.

Results

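The testis TAF genes of *Drosophila melanogaster* are 5 genes, *nht*, *can*, *mia*, *sa* and *rye*, whose levels were measured in dissected testes of *Pof* mutant and wild type males. They were picked out by name from the probe sets that the annotation of the array assigns to exactly 1 gene. The 5 genes had 6 such probe sets among 13647, *rye* having 2 and the others 1 each, and they are 5 of the 11983 genes measured in this way. *rye* is listed in the gene table as *Taf12L*. Each biological replicate was RNA of 60 testes, taken from males aged 0 to 24 h. The mutant males were of the stock *y1 w67c23; PofD119/PofD119* and the controls were *y1 w67c23*, so both carry the same X chromosome markers. The mutation is carried by all cells of the fly, and it is not stated how alike the 2 stocks are on the other chromosomes. Each genotype had 3 Affymetrix arrays, on which several short probes make up a probe set. The authors' RMA values, which are background-corrected and quantile-normalized levels on the log2 scale, were used as deposited, except that 1 constant was added to each mutant array.

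TAFs are the TBP-associated factors of TFIID, the general transcription factor that recognises core promoters for RNA polymerase II. In the fly, 5 of them have a second, testis-specific copy that is expressed in primary spermatocytes, the cells that grow and transcribe before meiosis. Males that lack a testis TAF arrest as mature primary spermatocytes: genes of spermatid differentiation are not transcribed and the cells do not enter the meiotic divisions. Testis TAF proteins gather in a part of the spermatocyte nucleolus, to which they also bring Polycomb proteins. They also act at promoters, together with the testis meiotic arrest complex, tMAC. POF, the protein missing in the mutant, binds chromosome 4. None of the 5 genes lies on chromosome 4: *nht* and *rye* are on 2L, *can* and *sa* on 3L and *mia* on 3R.

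The arrays were not alike within a genotype. In both genotypes replicate 2 lay far from replicates 1 and 3 on the principal component with the largest share of variance, 58.9% over the 7696 genes kept. Genes were kept when their wild type mean was at least 6 on the log2 scale, below which signals lie close to background. *Pof* itself had a mean log2 level of 12.98 in wild type and of 10.46 in mutant testes, or -2.52 as a difference (limma adjusted p = 1.5e-04). RNA of other tissues was present. All 7 accessory gland markers were kept, and their summed level, the log2 of the sum of their linear levels, ran from 16.38 to 16.60 in wild type and from 16.44 to 16.80 in mutant testes. Each of the 3 fat body markers kept fell in the mutant, with log2 changes of -1.60 for *Fbp1*, -2.02 for *Fbp2* and -1.56 for *Lsp2*, and their summed level ran from 8.98 to 9.91 in wild type and from 7.36 to 7.91 in mutant testes. The minimum used the wild type arrays only, so a marker high in the mutant alone would have been left out. *Fbp1* and *Fbp2* were kept at wild type means of 7.06 and 7.78, and their mutant means of 5.46 and 5.76 lay below 6. *Fbp2* passed in all 14 alternatives. *Fbp1* and *Lsp2* passed without wild type replicate 2 but not when any other array was left out (limma adjusted p of 0.063 to 0.119 and of 0.052 to 0.10). The 4 sheath muscle markers kept had summed levels of 10.23 to 11.40 in wild type and of 10.35 to 10.91 in mutant testes. Of the spermatogonium markers *aub* fell by 0.57 (limma adjusted p = 0.049, but 0.075 to 0.207 with any 1 of the 6 arrays left out and 0.065 without both replicate 2 arrays), *bgcn* had a change of 0.17 (adjusted p = 0.577) and *bam* lay below 6. Of the hub and cyst cell markers *eya* was kept, and *upd1*, *tj* and *zfh1* lay below 6. In whole organs, fewer cells of a type cannot be told apart from less RNA per cell. The part of these tissues in the values below was not tested.

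In *Pof* mutant testes, 0 of the 5 testis TAF genes passed the test in limma, 3 had a higher mean than in wild type and 2 a lower one. Among all 7696 genes, 4.69% passed, 2.47% as higher and 2.22% as lower. At an unadjusted p under 0.05 there was 1 testis TAF gene, *mia*, and 18.5% of all genes. In the fit blocked on replicate number, *mia* passed as higher, as did 5.82% of all genes (11.5% in either direction). With no minimum on the level, 0 of the 5 passed, beside 3.2% of 11983 genes. In 1 of the 5 genes, *mia* again, the arrays of the genotypes did not overlap, as in 24.6% of all genes. The median log2 change of the 5 genes was 0.23, beside 0.024 over all genes. All 5 genes, and all 6 of their probe sets, had passed the minimum of 6 in wild type.

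**Figure D1:**
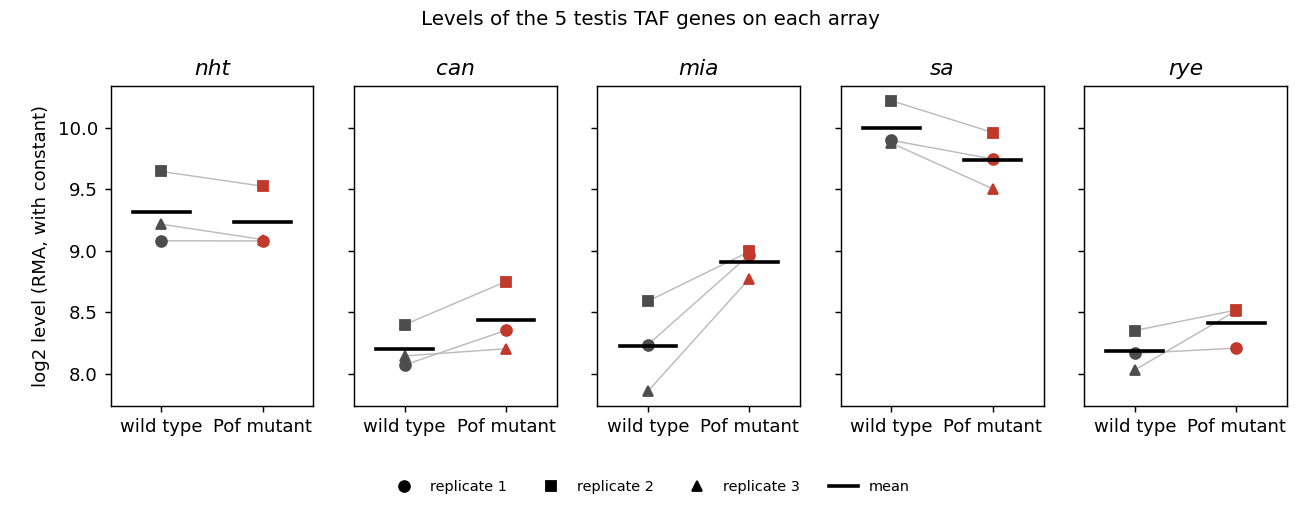
Log2 level (RMA, with the constant added to mutant arrays) of each testis TAF gene on the 3 wild type arrays (grey) and the 3 *Pof* mutant arrays (red). Symbols stand for the replicate number, thin lines join arrays with the same number and thick bars are means of 3 arrays. All mutant arrays lie above all wild type arrays for *mia*, and the genotypes overlap for the other 4 genes.

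*mia* (meiosis I arrest, Entrez Gene 40667) encodes the testis homolog of TAF6, a histone fold subunit. It had the largest change of the 5 genes. Its log2 level was 8.24, 8.59 and 7.86 on wild type arrays 1, 2 and 3, and 8.97, 8.99 and 8.77 on mutant arrays 1, 2 and 3. The lowest mutant array lay above the highest wild type array, and the wild type arrays were spread more widely (mean 8.23 ± 0.37, SD, n = 3) than the mutant arrays (mean 8.91 ± 0.12, SD, n = 3). The constant was added to mutant arrays only, and in deposited values, before it, the SD of the mutant arrays was 0.19. Of all genes, 13.4% had every mutant array above every wild type array, and 11.2% every one below. The log2 change of *mia* was 0.68, or 161% of the wild type level (standard error 0.19, 95% confidence interval 0.23 to 1.14), at a limma adjusted p = 0.115. By replicate number the differences were 0.73, 0.40 and 0.91. A fit blocked on replicate number gave a standard error of 0.12 and an adjusted p = 0.029. Without wild type replicate 2, the wild type array on which *mia* was highest, the change was 0.88 (limma adjusted p = 0.036), and without wild type replicate 3, on which it was lowest, 0.49 (adjusted p = 0.201).

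*sa* (spermatocyte arrest, Entrez Gene 40367) encodes the testis homolog of TAF8. It had log2 levels of 9.90, 10.22 and 9.88 on wild type arrays 1, 2 and 3 and of 9.75, 9.96 and 9.50 on mutant arrays 1, 2 and 3. The genotypes overlapped through mutant replicate 2 alone, which lay above wild type replicates 1 and 3. The SD over 3 arrays was 0.19 in wild type and 0.23 in mutant testes, and the log2 change was -0.26 (standard error 0.16, 95% confidence interval -0.63 to 0.11, limma adjusted p = 0.441). All 3 pairs of arrays with the same number had the lower value in the mutant, with differences of -0.15, -0.26 and -0.37. Blocked on replicate number, the adjusted p was 0.098.

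*nht* (no hitter, Entrez Gene 34902) encodes the testis homolog of TAF4. Its log2 levels were 9.08, 9.64 and 9.22 on wild type arrays 1, 2 and 3 and 9.08, 9.52 and 9.09 on mutant arrays 1, 2 and 3. Replicate 2 was the highest array in both genotypes, and the spread between replicates exceeded the difference between genotypes. The log2 change was -0.082 (standard error 0.19, 95% confidence interval -0.54 to 0.38, limma adjusted p = 0.867). Without wild type replicate 2 it was 0.095.

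*can* (cannonball, Entrez Gene 45432) encodes the testis homolog of TAF5, a WD repeat subunit. It was at log2 levels of 8.07, 8.40 and 8.14 on wild type arrays 1, 2 and 3 and of 8.35, 8.75 and 8.20 on mutant arrays 1, 2 and 3. The genotypes overlapped, with wild type replicate 2 above mutant replicates 1 and 3. The log2 change was 0.23 (standard error 0.17, 95% confidence interval -0.17 to 0.63, limma adjusted p = 0.542), and the mutant array was the higher one in all 3 pairs. Without mutant replicate 2, on which *can* was highest, the change was 0.073.

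*rye* (ryan express, Entrez Gene 33672) encodes the testis homolog of TAF12, the histone fold partner of TAF4. Averaged over its 2 probe sets it had log2 levels of 8.17, 8.35 and 8.03 on wild type arrays 1, 2 and 3 and of 8.21, 8.52 and 8.51 on mutant arrays 1, 2 and 3. Mutant replicate 1 lay within the range of the wild type arrays and the other 2 mutant arrays above it. The log2 change was 0.23 (standard error 0.13, 95% confidence interval -0.087 to 0.55, limma adjusted p = 0.424). The 2 probe sets of *rye* did not have the same pattern. In deposited values, before the constant, the brighter one had 10.08, 10.53 and 10.09 on wild type arrays and 10.52, 10.72 and 10.28 on mutant arrays. The dimmer one had 6.25, 6.18 and 5.97 on wild type arrays and 5.93, 6.19 and 6.46 on mutant arrays, close to the minimum of 6. With the brighter probe set alone the change was 0.34 (limma adjusted p = 0.333). Where in the gene the probe sets lie was not analysed here.

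The proportions among the 5 genes shifted between genotypes by up to 0.94 on the log2 scale, and no shift passed its test. Within an array the log2 ratio of 2 members does not depend on the constant, so the shift of this ratio between genotypes was compared for all 10 pairs of members. The widest shift was that of *mia* against *sa*. This log2 ratio lay between -2.02 and -1.63 on wild type arrays and between -0.97 and -0.73 on mutant arrays, a shift of 0.94 (two-sided exact permutation test over arrays, p = 0.10, adjusted p = 0.143 over 10 pairs). A p of 0.10 is the smallest that 3 arrays against 3 allow, so no pair could pass, and 7 of the 10 pairs reached it, among them all 4 pairs with *mia*. Reaching it means only that the ratios of the genotypes did not overlap. The 10 pairs share 5 genes, and how often gene pairs in general reach it was not computed. For single genes, the genotypes did not overlap in 24.6% of all genes kept. The ratio of *can* to *sa* shifted by 0.49. The ratio of *nht* to *rye*, whose TFIID counterparts form a histone fold pair, shifted by -0.31 (exact permutation p = 0.20). The ratio of *can* to *rye* had wild type and mutant means of 0.022 each.

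The general paralogs, *Taf4*, *Taf5*, *Taf6*, *Taf8* and *Taf12*, encode the subunits of TFIID that most cells use. Of these 5 genes 4 were kept, 0 passed the test in limma, and their median log2 change was 0.13. *Taf6*, the counterpart of *mia*, stood at -0.13 (adjusted p = 0.629), and *Taf4*, *Taf8* and *Taf12* had values between 0.13 and 0.14. *Taf5* had a wild type mean of 5.92, below the minimum, and was used only in the ratios, for which all probe sets of a gene were averaged with no minimum. Over its 2 probe sets *Taf4* also lay below the minimum there, at 5.88, so the ratios of *can* and *nht* were taken against signals close to background. The log2 ratio of *mia* to *Taf6* lay between 0.78 and 1.45 on wild type arrays and between 1.90 and 2.06 on mutant arrays, which do not overlap. Its shift was 0.82 (two-sided exact permutation test, p = 0.10, adjusted p = 0.25 over 5 pairs). The ratio of *sa* to *Taf8* lay between 1.86 and 2.01 on wild type arrays and between 1.40 and 1.64 on mutant arrays, a shift of -0.40 (exact permutation p = 0.10, adjusted p = 0.25). The groups did not overlap here either, and the shift was opposite to that of *mia*. How often the ratios of gene pairs in general do not overlap was not computed. The ratios of *can* to *Taf5* (0.36), *rye* to *Taf12* (0.11) and *nht* to *Taf4* (-0.22) had shifts at exact permutation p between 0.20 and 0.50.

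**Figure D2:**
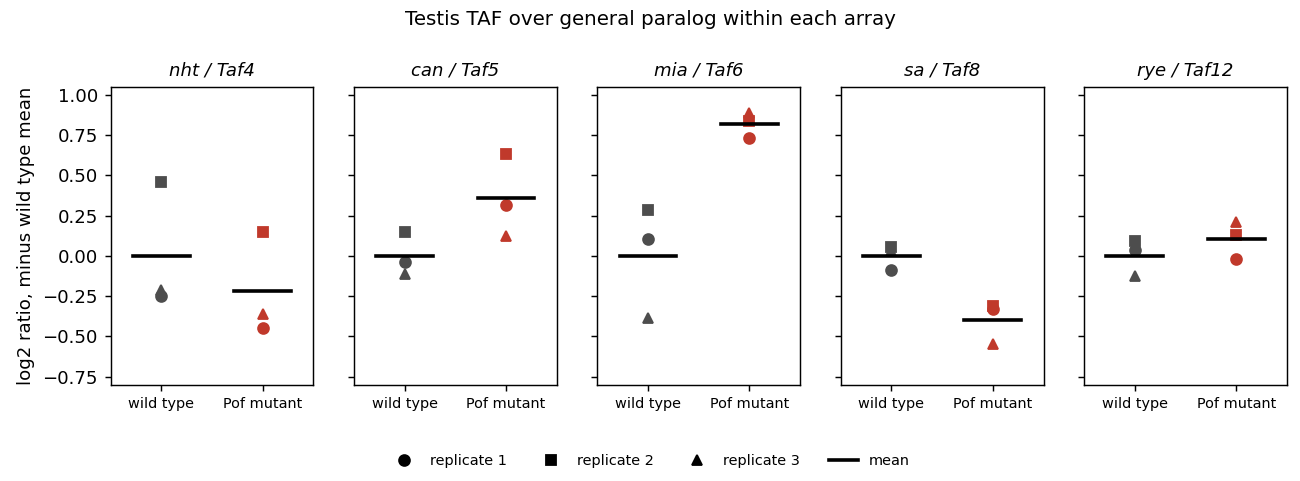
Log2 ratio of each testis TAF gene to its general paralog on each array, minus the wild type mean of that ratio, for wild type (grey) and *Pof* mutant (red) arrays. Symbols stand for the replicate number and bars for means of 3 arrays; the mutant arrays lie above the wild type arrays for *mia* over *Taf6* and below them for *sa* over *Taf8*.

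Of 10 other TFIID genes listed, 7 were kept and 0 passed in limma, with a median log2 change of 0.094. *Taf13*, which encodes a histone fold subunit, had the highest value (0.24, standard error 0.19, adjusted p = 0.568). *Taf3* had the lowest (-0.24, standard error 0.11, adjusted p = 0.307) and is the only one of the TFIID genes listed that lies on chromosome 4. It was at 9.55, 9.77 and 9.61 on wild type arrays 1, 2 and 3 and at 9.36, 9.55 and 9.29 on mutant arrays 1, 2 and 3, and the genotypes overlapped by a narrow margin. *Tbp*, the TATA-binding protein at the core of TFIID, had a change of 0.14 at a wild type mean of 6.07, close to the minimum.

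**Figure D3:**
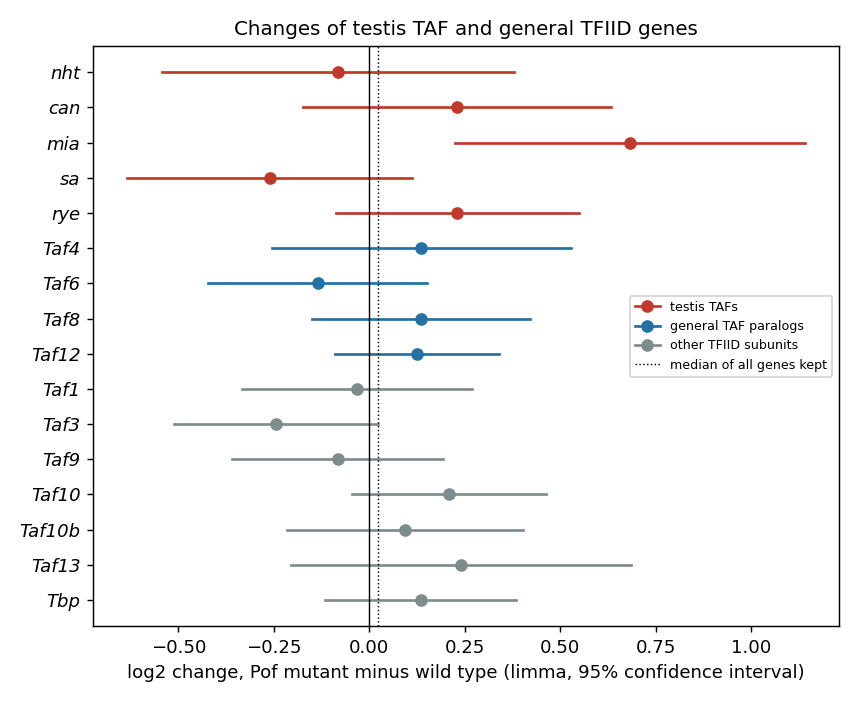
Log2 change, *Pof* mutant minus wild type, of the 5 testis TAF genes (red), 4 general paralogs (blue) and 7 other TFIID genes (grey), with 95% confidence intervals from limma on 3 arrays per genotype. The interval of *mia* (0.23 to 1.14) lies above 0, the intervals of the other testis TAF genes hold 0, and the dotted line is the median of all genes kept (0.024).

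Among the genes of the bromodomain, tMAC and Polycomb lists, 1 of the 13 kept fell and the rest did not pass, beside 2.22% lower among all genes. The testis bromodomain proteins of the BET family act in spermatocytes, where tBRD-1 is found together with testis TAFs. All 3 of their genes were kept and had a median log2 change of -0.30. *tbrd-3*, on 2R, had log2 levels of 9.38, 9.71 and 9.39 on wild type arrays and of 8.29, 8.51 and 8.14 on mutant arrays, with no overlap. It fell by 1.18 on the log2 scale, to 44.1% of the wild type level (standard error 0.14, limma adjusted p = 0.0068), and passed in all 14 alternatives tried. *tbrd-2* had a change of -0.30 (adjusted p = 0.356) and *tbrd-1* of -0.086 (adjusted p = 0.729). Of 9 tMAC and partner genes, 7 were kept and 0 passed, with a median of -0.15. Their values ran from -0.29 for *vis*, which encodes a homeodomain protein of the complex, to 0.062 for *tomb*, which encodes a DNA-binding tMAC subunit, and *aly* and *achi* lay below the minimum. Of 8 Polycomb genes, 3 were kept and 0 passed, with values from -0.32 for *Su(z)12*, a subunit of the H3K27 methyltransferase complex, to -0.070 for *Sce*, which encodes a ubiquitin ligase of the other Polycomb complex. All mutant arrays lay below all wild type arrays for 2 bromodomain genes (*tbrd-3*, *tbrd-2*), 1 tMAC gene (*topi*) and 1 Polycomb gene (*Su(z)12*). Among all genes this held for 11.2%. At an unadjusted p under 0.05 the counts were 0 for the general paralogs, for the other TFIID genes and for tMAC, 1 for the Polycomb genes and 1 for the bromodomain genes, beside 18.5% of all genes.

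The genes of spermatid differentiation, the class that is not transcribed without testis TAFs, were kept nearly in full. Of 14 listed, 13 were kept, 0 were higher and 2 were lower in the mutant, beside 2.47% higher and 2.22% lower among all genes. Their median log2 change was 0.061. Many of these genes were bright, with wild type means up to 13.89 (*Mst98Ca*). The highest wild type mean among all listed genes was 14.22 (*Acp98AB*). Whether the arrays can show a rise at such levels was not tested. *Mst87F*, a sperm tail gene, had levels of 13.81, 13.83 and 13.73 on wild type arrays and of 13.84, 13.94 and 14.00 on mutant arrays. Its mutant arrays lay above the wild type arrays by a narrow margin, and its change of 0.13 did not pass (limma adjusted p = 0.486). Of the 13 genes, 4 had every mutant array above every wild type array and 2 had every one below. The shares among all genes were 13.4% and 11.2%. *fzo*, the mitofusin that fuses spermatid mitochondria, had a change of -0.22 (adjusted p = 0.435). *dj*, a sperm tail gene, fell by 0.68 (adjusted p = 0.0063) and *Mst84Db*, of the same sperm tail family as *Mst87F*, by 0.47 (adjusted p = 0.038). *dj* lost its call without wild type replicate 1 (-0.67, adjusted p = 0.058). *Mst84Db* lost it when any of the 6 arrays was left out, with values from -0.50 to -0.41. The 4 genes of the *Mst84D* cluster did not go the same way, with values of 0.061 for *Mst84Da*, 0.18 for *Mst84Dc* and 0.17 for *Mst84Dd*. Of the meiotic cell cycle genes, which are transcribed without testis TAFs, 2 of 5 were kept and 0 passed. The translation regulator *bol* had a change of -0.0014 and the cyclin gene *CycB* one of -0.13.

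**Figure D4:**
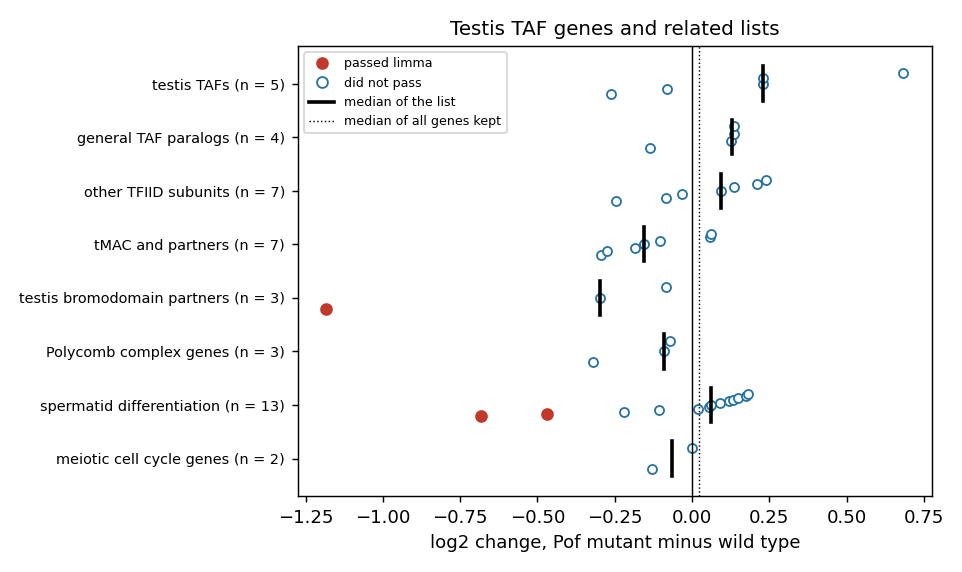
Log2 change, *Pof* mutant minus wild type, of each kept gene in 8 lists, with filled red points for genes that passed limma, open blue points for genes that did not, and bars for list medians. The 5 testis TAF genes spread from -0.26 to 0.68, and the filled points are *tbrd-3*, *dj* and *Mst84Db*, all lower.

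Replicate 2 moved the testis TAF genes within both genotypes. With the constant added, replicate 2 was the highest of the 3 arrays in wild type and again in mutant testes for all 5 genes. The same held for 48.4% of all genes. It also held for 6 of 7 other TFIID genes, 6 of 7 tMAC and partner genes and all 3 bromodomain genes kept. Among the remaining lists it held for all 3 Polycomb genes, 2 of 4 general paralogs and 3 of 13 spermatid differentiation genes kept. In deposited values, mutant arrays 1, 2 and 3 of *mia* stood at 8.98, 8.93 and 8.63, so replicate 1 was highest there. With the constant, replicate 2 exceeded the mean of replicates 1 and 3 by 0.25 to 0.54 on the log2 scale in wild type and by 0.12 to 0.47 in mutant testes. The medians of this excess were 0.33 and 0.34 for the 5 genes, 0.14 and 0.10 for all genes, and 0.28 and 0.36 for tMAC and its partners. For *nht*, *can* and *sa* the excess was larger than the difference between genotypes in either genotype, and for *mia* it was 0.54 in wild type and 0.12 in mutant testes. For *rye* the mutant arrays 2 and 3 were nearly level (8.52 and 8.51), and its dimmer probe set was not highest on replicate 2 in either genotype. The sheath muscle markers went the other way, with a median of -0.82 in wild type and -0.23 in mutant testes. Their part in the replicate pattern was not tested. Without both replicate 2 arrays the log2 change was 0.83 for *mia* (limma adjusted p = 0.060), 0.27 for *rye*, 0.18 for *can*, -0.054 for *nht* and -0.25 for *sa*, and 0 of the 5 passed.

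**Figure D5:**
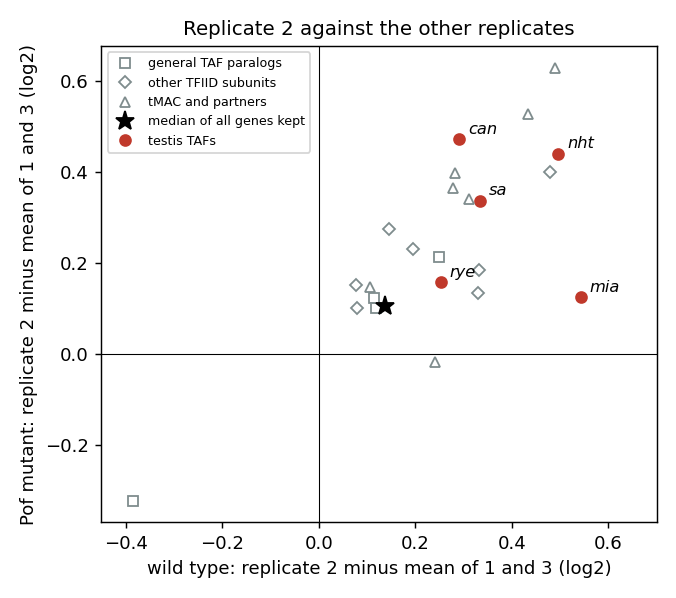
Excess of replicate 2 over the mean of replicates 1 and 3 on the log2 scale, in wild type (horizontal axis) and *Pof* mutant testes (vertical axis), for the testis TAF genes (red), 3 related lists (open symbols) and the median of all genes kept (star). All 5 testis TAF genes lie above 0 on both axes. Of these, *mia* is lowest on the vertical axis (0.12) and, at 0.54, only slightly to the right of *nht* (0.50).

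The profiles of the 5 genes over the 6 arrays were not closest to each other. Likeness was measured as the root mean square difference between the log2 values of 2 genes, each centred on its own mean over the 6 arrays. For *sa* and *nht*, the most alike pair of members, this was 0.14, but 1119 other genes were closer to *sa* and 674 closer to *nht*. For *mia* the nearest member was *rye* (0.29), with 902 genes closer. The genes closest to *mia* were *CG7573* (0.082) and *CG32986* (0.093), and *CG32986* rose by 0.84 (limma adjusted p = 0.0497). Closest to *sa* were *CG8195* (0.028) and the mitochondrial ribosomal protein gene *mRpL19* (0.031). Closest to *nht* were *Erasp* (0.022) and the ligand gene *Ephrin* (0.041), which lies on chromosome 4. Closest to *can* were *CG13373* (0.044) and *ida*, a subunit gene of the anaphase-promoting complex (0.051), and closest to *rye* were *CG14312* (0.036) and *CG13230* (0.039). With 6 arrays and 7696 genes, near matches of this kind arise in large number, and they are given as a description.

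Of the 20 kept genes that form the 2 nearest on each side of each member, 1 was higher and 0 were lower in limma, beside 4.69% of all genes, and 5 passed in the fit blocked on replicate number, beside 11.5%. The 4 neighbours of *mia* had log2 changes between -0.00096 and 0.12. *CG15258*, next to *nht*, rose by 0.70 (standard error 0.12, limma adjusted p = 0.026), while *nht* had -0.082. The neighbours of *can* included *Gem3* (0.64, adjusted p = 0.055) and *CG6628* (0.51, adjusted p = 0.064). *CG33288*, near *sa*, had a change of 0.57 (limma adjusted p = 0.072). *CG3251*, next to *rye*, had the lowest change of the 20, -0.50 (limma adjusted p = 0.22). These genes and *CG15258* were the 5 that passed in the blocked fit. In the gene table *sa* overlaps *rgn*, which had a change of 0.18, and *rye* overlaps *dcma*, so their probe sets may not be specific to the member, which was not tested.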

How the data were processed

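RNA of the testes was hybridised to version 2 of the Affymetrix *Drosophila* gene chip. The authors made the deposited log2 values with RMA, which subtracts background, brings the arrays to a common distribution and summarises each probe set; a change shared by most genes would be removed, and changes of weak genes can be understated. The labels and methods give no RMA version. The 18952 probe sets had array medians between 5.78 and 5.88. Of these, 13647 named 1 gene, 402 several and 4903 none in the platform annotation, and only the first were used. Names were updated through Entrez IDs with the Release 6 gene table, in which 11894 of 11983 genes matched. *rye* is there a synonym of *Taf12L* and of a receptor gene; the TAF12 homolog was taken. No source names the build behind the array, and coordinates were left out.

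After the study's methods, a minimum of 6 on the mean of the wild type arrays was set, the 8028 probe sets above it were averaged into 7696 genes, and constants of -0.017, 0.064 and 0.15 were added to mutant replicates 1, 2 and 3 so that the mean log2 level over genes equalled that of wild type. The test was that of limma 3.58.1 (lmFit and eBayes, R 4.3.3) with p-values adjusted over the kept genes by Benjamini-Hochberg and called at 0.05. Within-array log2 ratios were compared by two-sided exact permutation over the 20 splits of 6 arrays. The main fit was also run on simulated data with independent noise on each array. The simulation held no shift shared by replicates, unlike these arrays, and did not cover the blocked fit. Plots were made in matplotlib 3.10.9 under Python 3.11.15. The number of arrays limits the precision. The replicates are called biological, and p-values measure the spread between them.

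Both genotypes have replicates 1, 2 and 3. Deviations from the group means of same-numbered arrays correlated across genes at 0.40, 0.88 and 0.72. The correlation of mutant replicate 1 was higher with wild type replicate 3 (0.56), and that of wild type replicate 1 was higher with mutant replicate 3 (0.63). Deviations within a genotype cancel out, so a shared shift of replicate 2 also makes replicates 1 and 3 correlate. Reading the numbers as pairs comes from the data and is clear for replicate 2 only. The main fit and the exact tests do not use the pairing, and a fit with the replicate number as a block is given beside them. The 14 alternatives changed the minimum, the constant, the choice of probe set, the eBayes settings, the block or the arrays used. The rule for the members uses names alone, but members and lists were chosen with earlier results of these data known. All members are named, as are list genes that passed (otherwise the highest and lowest) and the 2 genes most alike each member; neighbours, pairs of members and a few further list genes were added later, the first by position alone. Of the listed names, 1 had no row in the gene table and was not analysed here.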

Additional observations from a re-analysis of the deposited data

How the results depend on the processing

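Across 14 alternatives, *can*, *mia*, *rye* and *sa* kept the direction of their change, and *can*, *rye*, *sa* and *nht* did not pass the test in any. The log2 change of *mia* was 0.68 in the fit blocked on replicate number (adjusted p = 0.029, as against 0.115), which makes 1 testis TAF gene called higher, and ran from 0.49 to 0.88 when 1 array was left out, with a call without wild type replicate 2 only, so that 0 to 1 testis TAF genes were called. Its adjusted p ran from 0.029 to 0.318 over all alternatives. The change of *nht* ran from -0.23 to 0.095 when 1 array was left out and was above 0 only without wild type replicate 2; the cause was not tested. The block changed no call of the other 4 members. Over all genes, 190 were higher and 171 lower; without the constant 107 were higher, with the block 448 were higher and 437 lower, and with 1 array left out 59 to 221 were higher and 78 to 182 lower. Of the spermatid differentiation genes, 0 to 1 were lower with 1 array left out and 1 without both replicate 2 arrays. Fits with 1 array left out have fewer arrays, and their limma variance is pooled over genotypes. The ratio to a general paralog does not depend on the constant, and for *nht* to *Taf4* the shift was 0.012 without wild type replicate 2, as against -0.22. Low signal limits *Taf4*, *Taf5*, *Tbp*, *CycB*, the dimmer probe set of *rye* and the mutant values of *Fbp1* and *Fbp2*, among others near 6.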
